A study of Homo sapiens with 12 samples.

Results

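The 10 genes described here encode the cyclins, cyclin-dependent kinases (CDKs) and CDK inhibitors that set the passage of a cell from G1 into S phase. They were taken by symbol, as the rows of CCND1, CCND2, CCND3, CCNE1, CCNE2, CDK2, CDK4, CDK6, CDKN1A and CDKN1B among the 26485 genes of the expression table. D-type cyclins bind CDK4 or CDK6 and E-type cyclins bind CDK2, and both kinds of complex phosphorylate the retinoblastoma protein RB, which then releases E2F transcription factors that drive genes of DNA replication, the E-type cyclins among them. The inhibitor p21 (CDKN1A) is a classical target of p53 and p27 (CDKN1B) responds to growth factor withdrawal, and both bind and restrain cyclin E and CDK2 complexes. In HER2-positive breast cancer cells, signalling from HER2 sustains cyclin D1 and keeps p27 low, and loss of that signal is known to stop cells in G1.

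The RNA came from BT474, an established human breast cancer line with amplified HER2 (ERBB2), labelled wild type in genotype and grown in RPMI with fetal bovine serum. Lapatinib inhibits the kinases of HER2 and EGFR, and cells under continuous lapatinib at 1 µM were taken as drug-tolerant persisters (DTP, day 9), as drug-tolerant expanding persisters that had begun to grow again (DTEP, month 6) and as long-term resistant cells (LR, month 9). Control cells were taken at day 0, and they carry the same lapatinib label as the rest, but their titles call them Control, Day 0, so they were taken as untreated. Each of the 4 groups had 3 libraries, which the authors call technical replicates and elsewhere describe as from parallel plates of cells. The p-values therefore measure the spread between these libraries, which may be technical. A difference may come from less RNA per cell or from fewer cells of a kind, and in bulk samples these cannot be told apart.

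The 12 libraries held 16383363 to 25030482 assigned reads each, and levels are given as normalised read counts, on a scale where 1 read was worth 0.0412 to 0.0576. DTEP replicate 3 stood apart from its group. Its correlation over genes was 0.971 to 0.986 with the LR libraries and 0.934 and 0.962 with the other DTEP libraries, so the DTEP results of the members are also given without it, gene by gene or together after the single genes. All 8 markers of luminal breast epithelium were present in every group. The mean of ERBB2 over Control, DTP, DTEP and LR was 6526, 8545, 1627 and 1774, and the adhesion gene CDH1 fell from 1125 in Control to 109 in DTEP and 75.1 in LR. At limma adjusted p below 0.05, 2 of the 8 were higher in DTEP than in Control (29.5% of all genes) and 3 lower (28.7%). In LR against Control, 1 of the 8 was higher (30.2%) and 5 were lower (32.6%). GATA3 was the highest in both, at log2 changes of 2.59 and 2.68. All tested genes listed for the amplified regions of BT474 on 17q12 (5 of 5), 17q23 (7 of 7) and 20q13 (3 of 3) were lower in DTEP and in LR than in Control. The share of all genes that were lower was 28.7% in DTEP and 32.6% in LR. In DTP against Control, 2, 1 and 0 genes of these regions were higher (25.2% of all genes) and 0, 5 and 1 lower (28.8%). Of the fibroblast markers, 4 of 5 had at most 3 reads in every group, with COL1A1 the exception, and so had 4 of 5 leukocyte markers, with CD68 the exception. Of the endothelial genes, VWF had a mean of 8.09 in Control and 0.118 in LR. The proliferation marker MKI67 had means of 224, 2.71, 563 and 292 in the same order of groups. In a list of 12 proliferation genes, MKI67 alone was higher in DTEP than in Control (29.5% of all genes), and 1 was lower (28.7%). In LR against Control, 0 of the 12 were higher (30.2%) and 8 lower (32.6%), with a median log2 change of -1.47. What part these levels have in the results below was not tested.

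On the GRCh38 assembly the D-type cyclins lie at chr11:69641156-69654474 (CCND1), chr12:4273762-4305353 (CCND2) and chr6:41934933-42050035 (CCND3). Of the E-type cyclins, CCNE1 lies at chr19:29811991-29824312. The kinases lie at chr12:55966830-55972789 (CDK2), chr12:57747727-57752310 (CDK4) and chr7:92604921-92836573 (CDK6), and the inhibitors at chr6:36676463-36687332 (CDKN1A) and chr12:12717368-12722369 (CDKN1B). Reads were counted over the exons of RefSeq gene models. CDK4 overlaps TSPAN31, and the ends of CCNE2 overlap INTS8 and NDUFAF6. The default counting of the authors' tool does not use strand, so reads in these overlaps could be lost or counted for the other gene.

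RefSeq promoter windows of GRCh38.p14, from 250 bases before to 50 after a start, were at hand for 6 of the 10 genes and 9 starts. The stretches before the start of CDK4 and CDK6 are shown because these partners of the same cyclins parted in DTEP, where CDK6 fell and CDK4 overlapped Control, and that of CDKN1B because it was the inhibitor with no DTEP or LR library below the Control range. Each is read 5′ to 3′ on the strand of the gene. Capitals mark CACGTG, the E-box bound by MYC among others, in CDK4 and CDK6 (minus strand, chr12:57752311-57752560 and chr7:92836574-92836823), and CCAAT, the box bound by NF-Y, in CDKN1B (plus strand, chr12:12717118-12717367):
CDK4: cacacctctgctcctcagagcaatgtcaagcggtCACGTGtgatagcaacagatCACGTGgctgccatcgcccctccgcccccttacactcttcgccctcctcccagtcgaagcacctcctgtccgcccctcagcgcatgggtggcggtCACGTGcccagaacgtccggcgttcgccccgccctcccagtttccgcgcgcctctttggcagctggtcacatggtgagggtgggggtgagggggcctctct
CDK6: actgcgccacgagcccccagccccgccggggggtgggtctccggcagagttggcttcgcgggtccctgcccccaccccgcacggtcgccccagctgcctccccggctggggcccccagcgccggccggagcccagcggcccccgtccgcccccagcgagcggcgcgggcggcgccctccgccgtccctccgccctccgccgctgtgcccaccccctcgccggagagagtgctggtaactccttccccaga
CDKN1B: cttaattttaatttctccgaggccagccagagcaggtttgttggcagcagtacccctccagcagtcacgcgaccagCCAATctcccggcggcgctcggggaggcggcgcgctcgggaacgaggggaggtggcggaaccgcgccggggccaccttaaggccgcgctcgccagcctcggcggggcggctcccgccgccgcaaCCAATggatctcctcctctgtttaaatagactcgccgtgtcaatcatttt

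The CDK4 window held CACGTG 3 times, the CDK6 window shown held none, and a window at another CDK6 start held it 1 time. This word, added after the windows were read, occurred in 7.26% of all 35116 promoter windows. CCAAT, searched on both strands, was found 3 times in the CDKN1B window (2 of them in the stretch shown) and 2 times in the 3 windows of CCND3, and it occurred in 34.6% of all windows. The E2F words TTTCCCGC and TTTGGCGC and the CHR word TTTGAA, which marks many mitotic genes, were in none of the 9 windows of these genes, against 1.63%, 0.652% and 15.2% of all windows. CCND1, CCND2, CCNE2 and CDK2 had no window at hand and were not searched for any word. The words did not overlap one another, and no match or lack of one shows whether a factor binds there.

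Of the 10 genes, 9 passed the filter on low values (1 or more in at least 3 libraries) and were tested with limma among 13794 genes. CCND2, the D-type cyclin that was close to silent, was not tested. Counts are of genes past an adjusted p of 0.05, and each is set beside the share of all tested genes that passed in the same direction. In DTP against Control, 0 of 9 were higher (25.2% of all genes) and 5 were lower (28.8%), and CCNE2 alone also passed a log2 change above 2 in size (4.92%). In DTEP against Control, 2 were higher (29.5%) and 3 lower (28.7%), with CDK6 past the log2 rule (10.6%). In LR against Control, 0 were higher (30.2%) and 5 lower (32.6%), with CCNE1 and CDK6 past the log2 rule (12.8%).

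Against DTP, 4 of the 9 were higher in DTEP (35.7% of all genes) and 2 lower (32.6%), and 4 passed the log2 rule (15.2%). In LR against DTP, 3 were higher (36.2%) and 3 lower (35.3%), and 3 passed the log2 rule (17.9%). Between LR and DTEP, 0 were higher (3.04%), CCNE1 alone was lower (4.31%), and 0 passed the log2 rule (0.681%). The lower count in DTP and in LR against Control was thus above the background share and the higher count below it. The median log2 change of the 9 was -0.76 in DTP and -1.36 in LR against Control, where the median of all genes was -0.01 and -0.03. Comparisons that use the same Control or DTP libraries are not independent of each other.

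**Figure D1:**
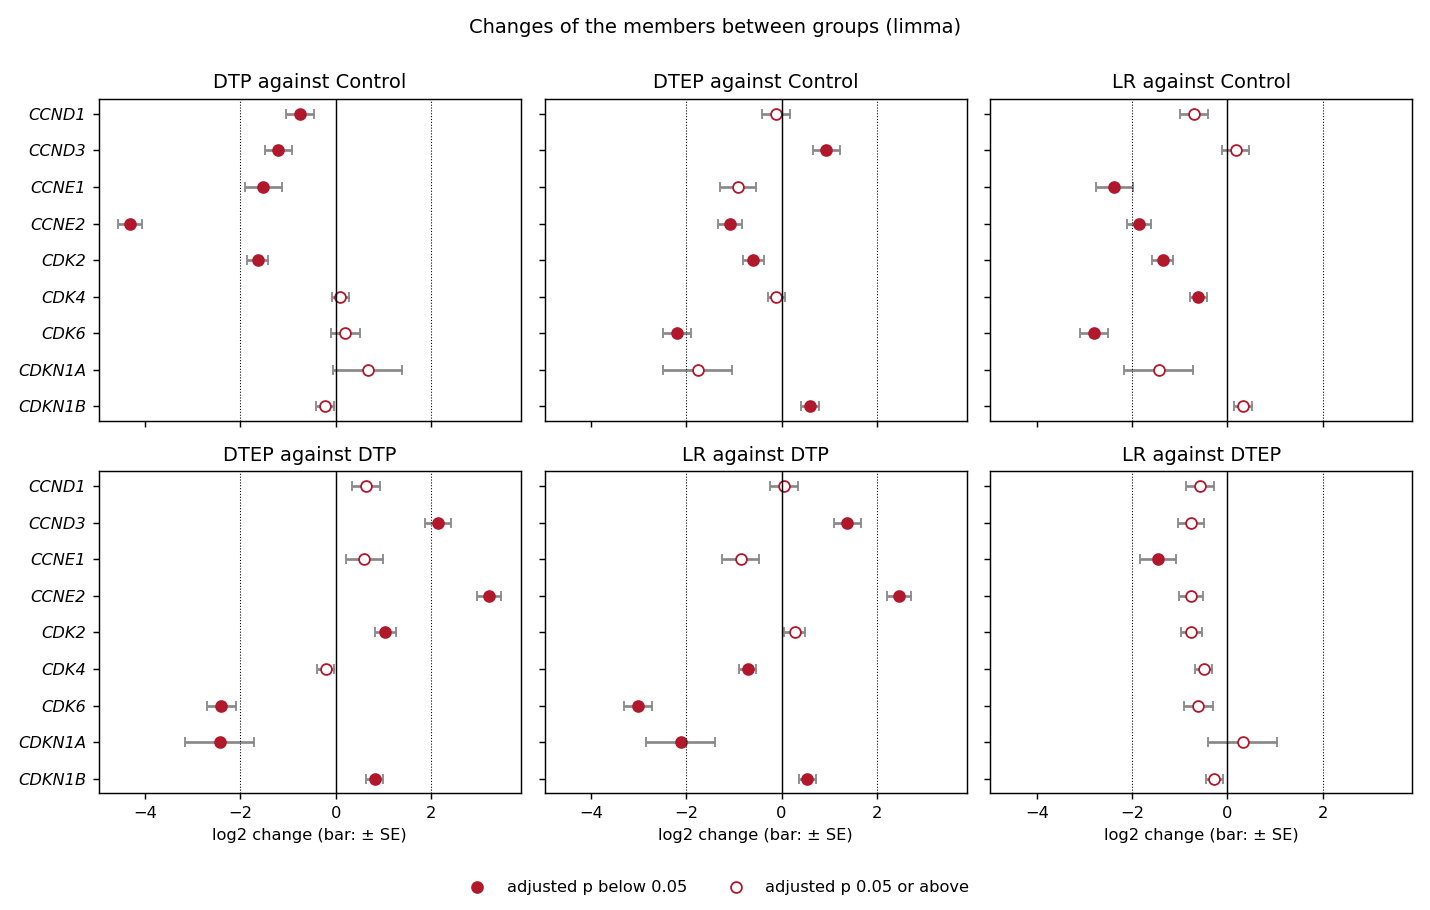
Log2 change of each of the 9 tested genes (points, with ± SE as bars) in the 6 comparisons, filled where the limma adjusted p was below 0.05, with dotted lines at -2 and 2. CCNE2 lies farthest left in DTP against Control at -4.33, and CDK6 lies left of -2 in every comparison of DTEP or LR with Control or DTP.

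CCND1, which encodes cyclin D1, was the D-type cyclin with the most RNA per kilobase of exon in every group. Its level was 399, 385 and 363 in the 3 Control libraries and 206, 222 and 252 in the DTP libraries. DTEP libraries held 440, 429 and 229, and LR libraries 277, 143 and 327. All DTP libraries lay below all Control libraries, whereas DTEP replicate 3 sat near the DTP level and the other DTEP libraries above Control. CCND1 fell by 0.76 on the log2 scale in DTP (SE 0.30, limma adjusted p = 0.0469), a 1.69-fold lower mean. This call lay close to the threshold and was lost in 13 of 24 alternative settings, among them the replicate block and the omission of any one Control or DTP library. In LR the 3 libraries were also below all Control libraries, with a log2 change of -0.70 that did not pass (SE 0.30, limma adjusted p = 0.0559). In DTEP the change from Control was -0.12 (limma adjusted p = 0.745), and without replicate 3 it was 0.18 (limma adjusted p = 0.562).

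CCND3, which encodes cyclin D3, had the lower level of the 2 expressed D-type cyclins and a different course. Control libraries held 43.9, 42.5 and 45.4, and DTP libraries 19.7, 18.5 and 17.2. DTEP libraries held 122, 111 and 45.9, and LR libraries 47.2, 52.1 and 50.1. The DTP libraries were the lowest and DTEP replicates 1 and 2 the highest, with replicate 3 at the level of Control and LR. CCND3 fell by 1.21 in DTP (SE 0.28, limma adjusted p = 0.00341) and then rose in DTEP by 2.15 from DTP (SE 0.28, limma adjusted p = 2.75e-05), a 5.03-fold higher mean. DTEP exceeded Control by 0.94 (limma adjusted p = 0.0121), by 1.39 without replicate 3 (limma adjusted p = 1.24e-06), and by 0.69 without replicate 2, where the call was lost (limma adjusted p = 0.0602). LR was close to Control, with a change of 0.18 (SE 0.28, limma adjusted p = 0.602), and above DTP by 1.38 (limma adjusted p = 0.000775). The step from DTEP to LR was -0.77 (limma adjusted p = 0.0873), and without DTEP replicate 3 it was -1.21 (limma adjusted p = 3.70e-05).

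CCND2, the gene of cyclin D2, had 1, 1 and 3 reads in the Control libraries and at most 1 read in any other library. No DTEP library had a read, which allows a level of up to 0.144, 0.124 and 0.168 in replicates 1, 2 and 3, for counting error alone. Within the D-type cyclins, the share of CCND3 per kilobase of merged exon went from 8.68% ± 0.583 in Control and 6.38% ± 1.01 in DTP to 16.8% ± 2.34 in DTEP and 15.6% ± 6.56 in LR (SD, n = 3). Exon lengths were those of the GENCODE annotation, and the absolute share rests on the length used. Merged exons of CCND3 span 5761 bases and its MANE Select transcript 2026, against 4761 and 4238 for CCND1. Each DTEP and LR library, DTEP replicate 3 included, had a larger CCND3 share than each Control and DTP library. The widest value in LR was that of replicate 2, where CCND1 was lowest and the CCND3 share was 23.1%. With 3 libraries against 3, an exact permutation test of a single value cannot go below p = 0.10, so shares were not tested.

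**Figure D2:**
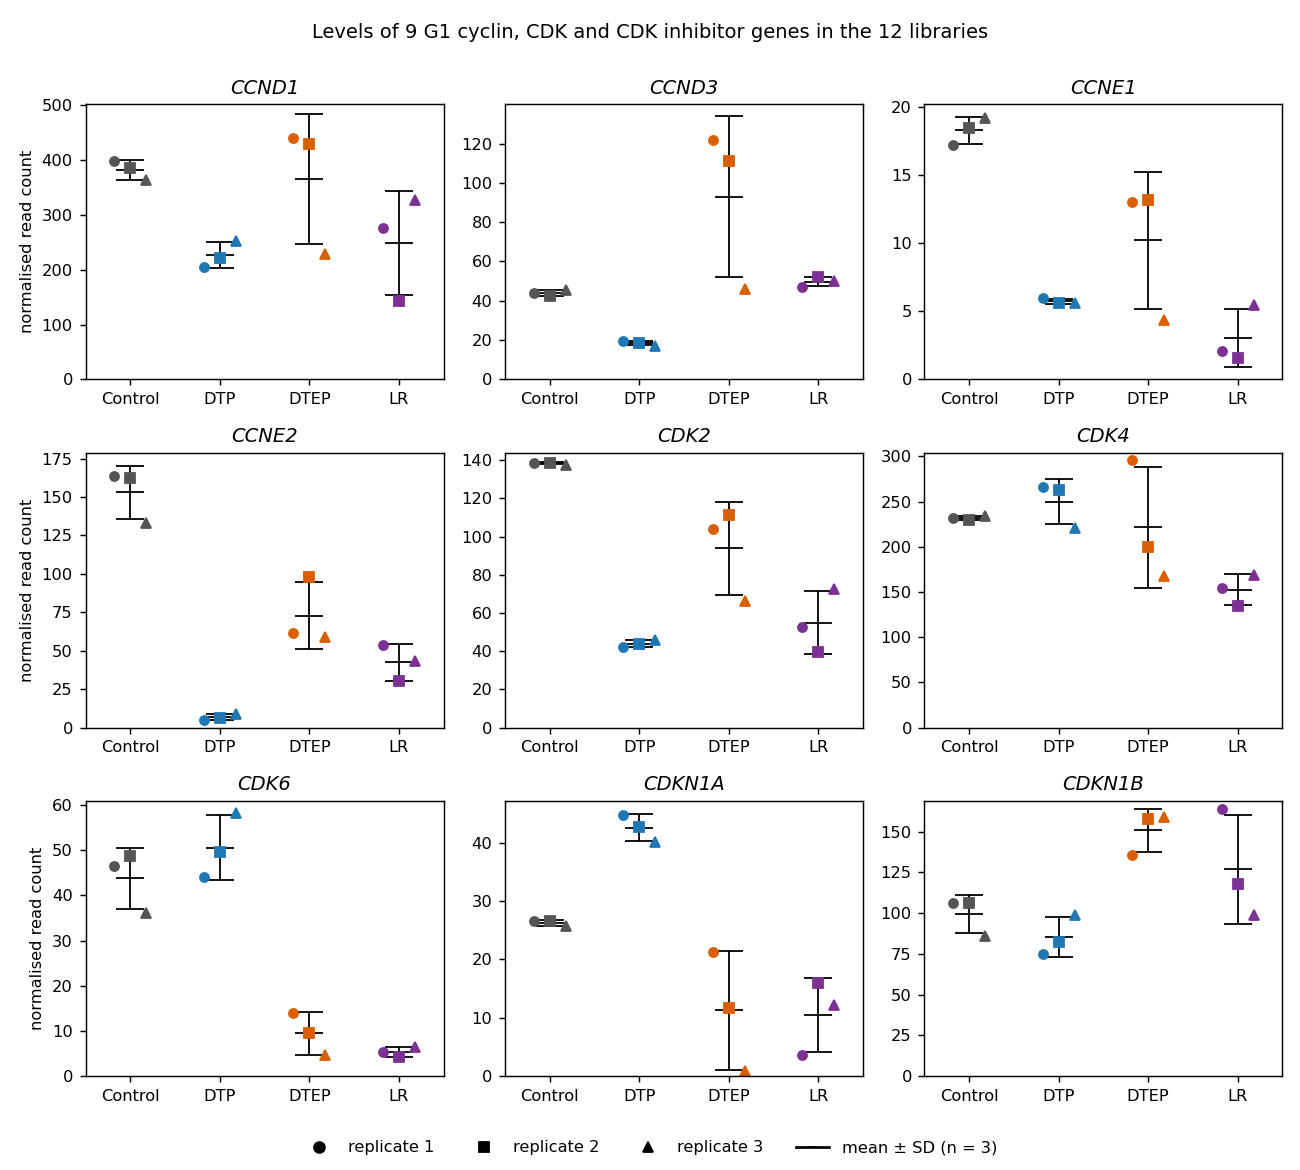
Normalised read counts of 9 genes in each of the 12 libraries (points, shaped by replicate number), with the mean ± SD of each group of 3 in black and axes that start at 0. DTP libraries lie lowest for CCND3 and CCNE2, DTEP and LR libraries lie lowest for CDK6, and DTEP replicate 3 (triangle) lies apart from its group for CCND1, CCND3 and CCNE1.

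The E-type cyclins and their kinase were the members that dropped most in DTP. CCNE2, which encodes cyclin E2, held 164, 163 and 133 in Control and 5.22, 6.32 and 8.81 in DTP. DTEP libraries held 61.8, 97.99 and 58.9, and LR libraries 54.0, 30.1 and 43.3. The 4 groups did not overlap at any point and ran in the order Control, DTEP, LR and DTP. CCNE2 fell by 4.33 in DTP (SE 0.25, limma adjusted p = 2.30e-07), a 22.6-fold lower mean, and rose again by 3.23 in DTEP (SE 0.25, limma adjusted p = 4.39e-07). It stayed below Control by 1.09 in DTEP and by 1.86 in LR (log2 changes -1.09 and -1.86, limma adjusted p = 0.00272 and 4.58e-05). LR exceeded DTP by 2.47 (limma adjusted p = 3.15e-06). The middle neighbours in that order, LR and DTEP, differed by -0.77 without passing (SE 0.25, limma adjusted p = 0.0710), and by -0.90 without DTEP replicate 3 (limma adjusted p = 0.0180).

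CCNE1, the gene of cyclin E1, was lower than CCNE2 in Control and took another path. Its level was 17.2, 18.5 and 19.2 in Control, and 5.95, 5.63 and 5.64 in DTP. DTEP libraries held 13.1, 13.2 and 4.38, and LR libraries 2.11, 1.55 and 5.47. All later libraries lay below all Control libraries, all LR libraries lay below all DTP libraries, and DTEP replicate 3 was in the LR range. CCNE1 fell by 1.52 in DTP (SE 0.38, limma adjusted p = 0.00567) and was lowest in LR, at -2.38 against Control (SE 0.38, limma adjusted p = 0.000186), a 6.01-fold lower mean. Its change in DTEP against Control was -0.91 (limma adjusted p = 0.0583), and -0.45 without replicate 3 (limma adjusted p = 0.218). CCNE1 was the one member that passed between LR and DTEP, at -1.46 (SE 0.38, limma adjusted p = 0.0433). This call was lost in 14 of 24 alternative settings, and the change was -1.93 without DTEP replicate 3 (limma adjusted p = 0.000573). LR against DTP gave -0.86 (limma adjusted p = 0.0621).

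The 2 E-type cyclins thus differed in which group was lowest, DTP for CCNE2 and LR for CCNE1. Per kilobase of merged exon, CCNE2 made up 82.3% ± 2.43 of their sum in Control and 39.4% ± 6.89 in DTP, then 80.5% ± 7.84 in DTEP and 88.9% ± 6.40 in LR (SD, n = 3). Every DTP library, at 32.9% to 46.6%, lay below every other library. With no length correction the DTP share was 53.5% and still the lowest of the 4.

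CDK2, the kinase of both E-type cyclins, held 138, 139 and 138 in Control and 42.2, 43.7 and 46.0 in DTP. DTEP libraries held 104, 111 and 66.1, and LR libraries 52.7, 39.7 and 72.8. Control libraries were the highest without overlap, and LR spanned the DTP level. CDK2 fell by 1.63 in DTP (SE 0.22, limma adjusted p = 9.34e-05), a 3.15-fold lower mean, and rose by 1.04 from DTP to DTEP (limma adjusted p = 0.00115). LR was lower than Control, at -1.36 (SE 0.22, limma adjusted p = 0.000192), and was not distinguished from DTP, at 0.28 (SE 0.22, limma adjusted p = 0.274). The smaller drop in DTEP against Control, -0.59 (limma adjusted p = 0.0359), was lost with the replicate block, without any one Control library, and without DTEP replicate 3, where it was -0.36 (limma adjusted p = 0.121).

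CDK4 and CDK6 bind the same D-type cyclins. CDK4 was the most abundant of the 3 kinases per kilobase of exon in every group, with a level of 232, 230 and 234 in the Control libraries and 266, 263 and 221 in DTP. DTEP libraries held 296, 200.2 and 168, and LR libraries 154, 135 and 169. Control, DTP and DTEP overlapped, and LR lay below every Control and DTP library. CDK4 changed by 0.10 in DTP (SE 0.18, limma adjusted p = 0.667) and by -0.11 in DTEP (SE 0.18, limma adjusted p = 0.636), and neither passed. In LR it was lower than Control, at -0.61 (SE 0.18, limma adjusted p = 0.0118), a 1.52-fold lower mean, and lower than DTP, at -0.71 (limma adjusted p = 0.00398). LR and DTEP differed by -0.50 (limma adjusted p = 0.0875), and by -0.68 without DTEP replicate 3 (limma adjusted p = 0.00575).

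CDK6 kept its level in persisters and lost most of it later. Control libraries held 46.5, 48.8 and 36.1, and DTP libraries 43.99, 49.6 and 58.2. DTEP libraries held 14.1, 9.56 and 4.72, and LR libraries 5.41, 4.26 and 6.54. Control and DTP overlapped, as did DTEP and LR, and the 2 pairs were far from each other. The change in DTP was 0.21 (SE 0.30, limma adjusted p = 0.591). CDK6 fell by 2.20 in DTEP (SE 0.30, limma adjusted p = 5.54e-05) and by 2.81 in LR (SE 0.30, limma adjusted p = 6.10e-06) against Control, means that were 4.64-fold and 8.11-fold lower. Without DTEP replicate 3 the DTEP change was -1.82 (limma adjusted p = 2.49e-05), still a call but inside the log2 rule. From DTP, CDK6 changed by -2.40 to DTEP and by -3.02 to LR (limma adjusted p = 1.93e-05 and 2.48e-06). The step from DTEP to LR, -0.61, did not pass (limma adjusted p = 0.166), and without DTEP replicate 3 it was -0.99 (limma adjusted p = 0.00368).

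Per kilobase of merged exon, CDK6 was a minor part of the CDK4 and CDK6 sum throughout, at 4.56% ± 0.711 in Control and 4.93% ± 1.16 in DTP, against 1.03% ± 0.281 in DTEP and 0.881% ± 0.0880 in LR (SD, n = 3). Here too the absolute share rests on the length, which was 3094 bases merged and 1865 in the MANE Select transcript for CDK4. For CDK6 these lengths were 12239 and 11663. No DTEP or LR library, at 0.704% to 1.19%, reached the lowest Control or DTP library, at 3.75%.

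**Figure D3:**
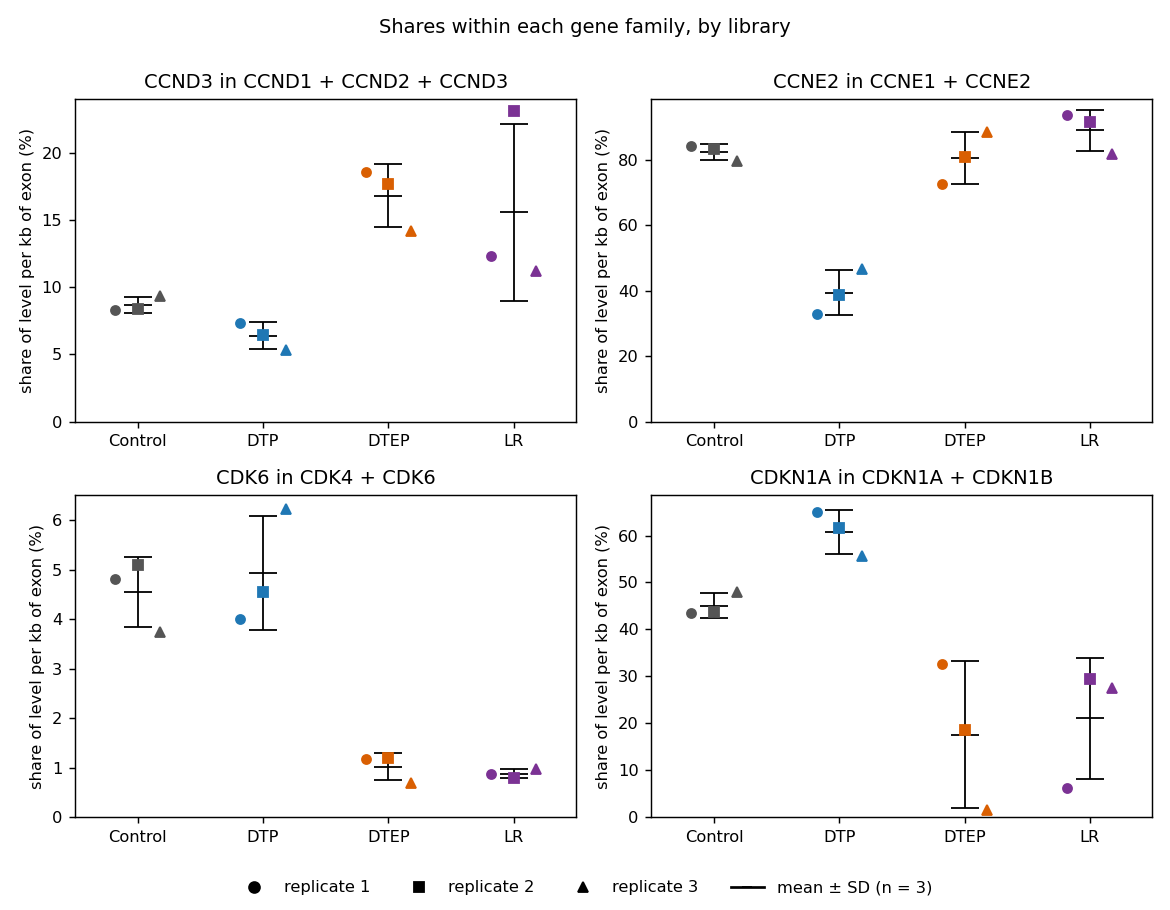
Share of 1 gene in the summed level of its family, per kilobase of merged exon, in each library (points, shaped by replicate number) with the mean ± SD of each group of 3 in black. The CDK6 share is near 1% in DTEP and LR, the CCNE2 share is lowest in DTP at 39.4%, and the CCND3 share is higher in all DTEP and LR libraries than in Control.

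The inhibitors CDKN1A (p21) and CDKN1B (p27) moved apart from each other. CDKN1A held 26.5, 26.6 and 25.7 in Control and 44.8, 42.7 and 40.2 in DTP. DTEP libraries held 21.3, 11.7 and 0.842, and LR libraries 3.55, 15.9 and 12.2. DTP was the highest group and did not overlap Control, and the DTEP libraries were spread over a range wider than that of any other group. The DTP mean was 1.62-fold that of Control, and the log2 change of 0.67 did not pass (SE 0.73, limma adjusted p = 0.458) in the fit that pools the spread of all 12 libraries. In a fit of the 6 Control and DTP libraries alone the same change passed (limma adjusted p = 0.000253), as it did in no other of the 24 alternatives. CDKN1A then fell from DTP by 2.44 in DTEP (SE 0.73, limma adjusted p = 0.0101) and by 2.12 in LR (SE 0.73, limma adjusted p = 0.0199). Without DTEP replicate 3, where CDKN1A had 15 reads, the DTEP change was -1.37 (limma adjusted p = 0.0145), and without DTP replicate 1 or LR replicate 1 the LR call was lost. All DTEP and LR libraries were also below all Control libraries, with changes of -1.76 and -1.44 that did not pass (limma adjusted p = 0.0543 and 0.102). Without DTEP replicate 3 the former was -0.70 (limma adjusted p = 0.182).

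CDKN1B was one of the 2 members above Control in DTEP, with CCND3. Control libraries held 106, 106 and 85.9, and DTP libraries 74.8, 82.5 and 99.1. DTEP libraries held 135, 158 and 159, and LR libraries 164, 118 and 98.7. DTEP lay above every Control and DTP library, and the LR libraries spanned the range from Control to DTEP. CDKN1B changed by -0.22 in DTP (SE 0.18, limma adjusted p = 0.337), and rose in DTEP by 0.60 from Control (SE 0.18, limma adjusted p = 0.0143) and by 0.82 from DTP (limma adjusted p = 0.00175). Without DTEP replicate 3 the rise from Control was 0.56 (limma adjusted p = 0.0292), and without Control replicate 3 it was 0.50 and the call was lost (limma adjusted p = 0.0726). LR exceeded DTP by 0.54 (limma adjusted p = 0.0187), a call lost without DTP replicate 1, DTP replicate 2 or LR replicate 1, and its change from Control was 0.32 (limma adjusted p = 0.143).

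Per kilobase of merged exon, CDKN1A made up 45.1% ± 2.57 of the CDKN1A and CDKN1B sum in Control and 60.7% ± 4.72 in DTP, against 17.6% ± 15.6 in DTEP and 21.1% ± 12.9 in LR (SD, n = 3). Every DTP library was above every Control library, and every DTEP and LR library was below, from 1.61% to 32.7%. The absolute share rests on the exon length used. With MANE Select transcripts, an alternative chosen after seeing the data, the CDKN1A shares were 23.3%, 36.4%, 7.85% and 9.35% in the same order of groups.

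The courses of the 9 genes fell apart along these lines. CCND3, CCNE2, CDK2 and CDKN1B had their lowest mean in DTP and were higher in DTEP than in DTP. Of these, CDKN1B did not pass in DTP against Control (-0.22, limma adjusted p = 0.337). CCND1 also had its lowest mean in DTP, and its change from DTP to DTEP was 0.64 with all libraries (limma adjusted p = 0.0741) and 0.94 without DTEP replicate 3 (limma adjusted p = 0.00742). CDK6 and CDKN1A had their highest mean in DTP and were lower than that in both later groups. In DTP against Control neither passed in the fit of all libraries (0.21 and 0.67, limma adjusted p = 0.591 and 0.458). CCNE1 and CDK4 had their lowest mean in LR, where both were lower than in Control. In DTEP against DTP, 6 of 9 members passed with all libraries and 8 of 9 without DTEP replicate 3, when 71.4% of all genes passed in either direction. The added calls were CCND1 and CCNE1, the latter going from 0.60 (limma adjusted p = 0.182) to 1.07 (limma adjusted p = 0.00832). In that fit CCND3, CCNE2, CDK2 and CDKN1B changed by 2.59, 3.37, 1.27 and 0.78 from DTP to DTEP, CDK6 by -2.02 and CDK4 by -0.03, of which all but CDK4 passed. Against Control, 4 of 9 members passed in DTEP without replicate 3, and 63.8% of all genes did, with CCNE2 at -0.96 (limma adjusted p = 0.00852). Between the last 2 groups, DTEP and LR, 8 of 9 members did not pass in the fit of all libraries. CCNE2 was among these although its LR libraries all lay below its DTEP libraries, whereas those of CCNE1, which passed, overlapped. Without DTEP replicate 3, 7 of 9 members passed, all lower in LR, and 47.5% of all tested genes passed in either direction. CDKN1A and CDKN1B were the exceptions, at -0.74 and -0.24 (limma adjusted p = 0.181 and 0.354).

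Other genes of G1 control are described by fixed lists, with the highest and lowest change among those that passed. Of 6 other CDK inhibitors, 2 rose and 2 fell in DTP, shares near those of all genes (25.2% and 28.8%). CDKN1C (p57, a relative of p21 and p27) rose from 0.403 to 5.56, at a log2 change of 2.23, and the phosphatase CDKN3 fell by 3.91. In DTEP against Control, 4 of 6 were higher (29.5% of all genes), from CDKN2C (p18) at 0.84 to CDKN2D (p19, an inhibitor of CDK4 and CDK6) at 1.48. Of 3 pocket proteins, RB1 and its relative RBL1 fell in DTP, with log2 changes of -2.01 and -1.66, and both were higher in DTEP than in DTP, by 2.34 and 3.76. RBL1 exceeded Control by 2.10 in DTEP, and RBL2 passed in no comparison.

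Counts in DTP are to be read against 25.2% of all genes higher and 28.8% lower than in Control, and counts in DTEP against 35.7% higher and 32.6% lower than in DTP. Among 10 E2F and DP factors, 6 fell in DTP, down to -4.34 for the repressor E2F7, and the repressor E2F4 rose by 0.46. In DTEP against DTP, 5 rose, with the activator E2F1 at 5.12, and TFDP2 fell by 1.92. Cyclins A and B with CDK1 act after G1, and 4 of 4 tested genes fell in DTP, from -3.34 for CCNB1 to -4.75 for CDK1, and 4 of 4 rose in DTEP, up to 5.53 for CCNA2. These 4 were all lower in LR than in DTEP (4.31% of all genes), from -1.41 to -1.83. Of the 7 genes of the MuvB complex and its partners, 6 fell in DTP, with MYBL2 at -4.96, and 6 rose in DTEP, with MYBL2 at 6.30. CDC25A, the phosphatase that activates CDK2, fell by 3.63 in DTP, the lowest of 6 genes of CDK activation, of which 3 fell and 2 rose. The list medians in DTP were -1.76 for the E2F and DP factors, -4.15 for the A- and B-type partners, -1.92 for the MuvB list and -0.45 for CDK activation, where that of all genes was -0.01. All 12 proliferation genes fell in DTP, and 11 of 12 rose in DTEP.

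**Figure D4:**
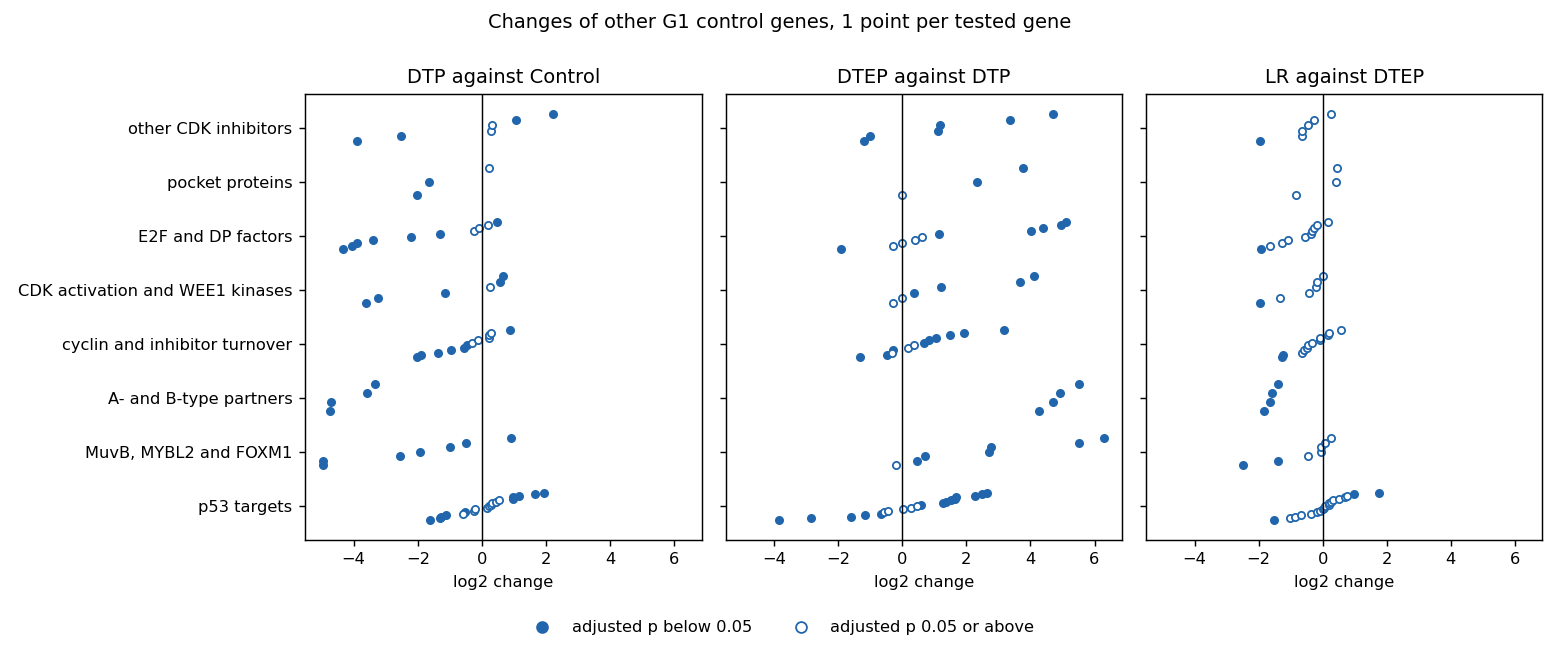
Log2 changes of the tested genes of 8 lists of G1 control (1 point per gene, filled where the limma adjusted p was below 0.05) in the 3 steps from Control to LR. A- and B-type partners lie left of -3 in DTP and right of 4 in DTEP, and p53 targets lie on both sides of 0 in each step.

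Among 12 genes that act in the turnover of cyclins and inhibitors, 6 fell (28.8% of all genes) and 1 rose (25.2%) in DTP. The median of the list was -0.39, where that of all genes was -0.01. CKS2, a CDK subunit, fell by 2.02, and FBXO31, a ligase subunit that targets cyclin D1, rose by 0.87. FBXW7, the ligase subunit that targets cyclin E, had means of 21.0, 19.5, 182 and 132 over Control, DTP, DTEP and LR, and passed at 3.05 in DTEP and 2.59 in LR against Control (limma adjusted p = 2.17e-08 and 6.09e-08). SKP2, the ligase subunit that targets p27, was the lowest of the list in DTEP against Control, at -1.07 (limma adjusted p = 0.000819). Of 19 tested p53 targets other than CDKN1A, 5 rose and 5 fell in DTP, from BBC3 at 1.93 to RRM2B at -1.61, near the shares of all genes (25.2% and 28.8%). In LR against Control 7 rose (30.2% of all genes) and 4 fell (32.6%), from the cytokine gene GDF15 at 2.71 to PHLDA3 at -4.32. PHLDA3 had at most 3 reads in each LR library, so the size of its fall depends on the 1 added to each value. These lists were drawn up with earlier results of the data known, so their counts are a description.

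The gene whose log2 level followed each member most closely over the 12 libraries is given as a description, since the libraries share 4 groups and most pairs of changing genes correlate. CCND3 was nearest to PAQR4 (r = 0.991), CCND1 to MRS2 (r = 0.952) and CCNE1 to PDSS1 (r = 0.974). CCNE2 was nearest to DIAPH3, a formin of cell division (r = 0.989), and CDK2 to CDC6, which loads the replicative helicase (r = 0.991). CDK4 was nearest to RPL35, a ribosomal protein gene (r = 0.967), and CDK6 to TGFBR2, a receptor of TGF-beta (r = 0.994). CDKN1A was nearest to GATA4 (r = 0.946) and CDKN1B to TDP2 (r = 0.975).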

How the data were processed

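Per the labels and the study's methods, the authors made stranded mRNA libraries, aligned reads to hg38 with Rsubread and counted them over RefSeq gene models. The deposited table holds a normalised signal per gene and library. All 199680 values above 0 (100%, tolerance 1e-06) were whole multiples of 1 read, and edgeR 4.0.16 gave the same scaling (TMM) from the recovered reads in all 12 libraries. No column was left unmapped. limma 3.58.1 (R 4.3.3) was run on log2(value + 1), which understates changes of low genes, over all 12 libraries without a block, with a variance trend and two-sided tests. Benjamini-Hochberg adjustment ran over the 13794 genes of a comparison, for 6 comparisons. edgeR and DESeq2 1.42.0 on the recovered reads were alternatives. The code was tested on simulated data. The rule for the members uses gene symbols and no values, but it and the gene lists were chosen with earlier results of these data known. Named are all members, the highest and lowest passing gene of each list, the nearest gene of each member, ERBB2 and MKI67, and other genes were named after their values were seen.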

Additional observations from a re-analysis of the deposited data

How the results depend on the processing

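Each of the 54 changes of a member was recomputed under 24 alternatives, and of these 1296 values 1205 kept their direction and side of the threshold, 41 lost and 40 gained a call, and 10 changed sign. The changes of sign were in values without a call. CCND1 in LR against DTP was -0.0108 with median-of-ratios scaling and ran from -0.18 to 0.41 when each library was left out, and CCND1 in DTEP against Control ran from -0.28 to 0.18. CDK4 in DTEP against Control ran from -0.34 to 0.0688 with each library left out. CDKN1A in LR against DTEP was -0.0204 with edgeR and -0.0416 with DESeq2, and ran from -0.74 to 1.055 with each library left out. The cause was not tested. Of the counts of members, 1 in LR against DTEP was 0 with no filter, with the 6 libraries alone, with the replicate block and with group-specific weights, 2 with edgeR and 4 with DESeq2, and 0 to 7 with each library left out (7 if DTEP replicate 3 was left out, 2 if LR replicate 3 was, and 0 for any other). In DTEP against Control the count of 5 was 3 to 7 with each library left out (3 without Control replicate 3, 7 without DTEP replicate 1) and 7 with median-of-ratios scaling, and that with the log2 rule was 0 to 2 (0 without DTEP replicate 3, 2 without DTEP replicate 1). Replicate numbers did not pair the libraries, since deviations of same-numbered libraries correlated at -0.441 to 0.359, and the replicate block gave 4 members in place of 5 in DTP and in DTEP against Control. Under median-of-ratios scaling, the all-gene median in DTEP against DTP shifted by -0.10. The spread limits precision most in DTEP, where the median SD was 0.33 on the log2 scale, against 0.07 in Control.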
